A study of Homo sapiens with 2 samples.

Results

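The Affymetrix Human Transcriptome Array 2.0 measures transcript clusters, groups of probes placed on stretches of the genome that give rise to RNA, and most of its clusters carry no gene symbol. The clusters described here are those for which the platform annotation gives no symbol and whose identifier places them on chromosomes 1 to 22 other than 9, 14 and 18. There were 36398 of them among 67528 clusters in the table (53.9%), and they made up 63.7% of the 57135 clusters of these 19 chromosomes. Of the others there, 19628 had 1 symbol and 1109 had several. The members were chosen by their annotation, not by their values.

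RNA came from FaDu, an established human cell line from a squamous carcinoma of the head and neck. The table holds 1 array of the parental line, which the labels call untreated, and 1 array of a FaDu line called resistant to cetuximab, an antibody against the epidermal growth factor receptor. How resistance arose, the dose of the antibody and its presence at harvest are not given in the labels. Neither line was replicated, so differences below are between 2 arrays, carry no error across cultures and have no test, and the line, the culture and the array cannot be told apart.

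A large part of the human genome is transcribed outside the genes that encode proteins. The products include long noncoding RNAs, transcripts antisense to known genes, pseudogenes, copies of small nuclear and nucleolar RNAs, and RNAs of repeats. Many long noncoding RNAs are made at low levels and in few tissues, and many are spliced and polyadenylated like messenger RNA. An absent symbol does not make a cluster noncoding. Of 17473 protein-coding genes that RefSeq places on these chromosomes, 1376 (7.88%) were paired with no cluster by symbol or synonym. No name, sequence or coordinate was at hand for the members, so they are given by identifier, without the shared ending, and nothing is said of what a single member encodes.

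Identifiers hold the chromosome in their first digits and then a running number, and the clusters with a symbol showed what that number follows. On each chromosome the numbers were divided into up to 4 series. In the first and second series, 16603 genes could be set against their RefSeq order, with 117 steps back and a lowest rank correlation of 0.9955 over chromosomes and series. Of genes with a known strand, 99.6% lay on the plus strand in the first series and 99.8% on the minus strand in the second. No strand was known for the genes of chromosome 8. The third series was set as the longest stretch with no symbol at all, between 496 and 2160 identifiers per chromosome. The fourth, which is short, closed the list. The members fell into these series as 8173, 8294, 19739 and 182 clusters. A further 10 members, whose identifiers have another form, belonged to no series. The members of the first and second series thus sit between named genes, while those of the third have no named neighbour.

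The members were dim. Their median log2 value was 4.51 in parental and 4.45 in resistant cells, against 5.69 and 5.73 for clusters with 1 symbol. A background level was taken from 423 clusters of olfactory receptor genes, which epithelial cells mostly do not express, as their 95th percentile. This level came to 5.15 for the parental array and 4.92 for the resistant one. Above it lay 12468 members (34.3%) in parental and 13404 (36.8%) in resistant cells, against 57.2% and 60.7% of clusters with 1 symbol. The order of the arrays turned at the 99th percentile of the same olfactory receptor clusters, with 6837 members above it in parental and 5014 in resistant cells. Both arrays showed 11539 members above background, and 22065 members were at or below it on both.

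At the brightest end members were more numerous, though not a larger share of their set. A mean of at least 8 over both arrays was reached by 3782 members (10.4%) and by 5751 clusters with 1 symbol (29.3%). At a mean of at least 14 there were 391 members (1.07%) and 247 clusters with 1 symbol (1.26%). The highest value of the table on each array belonged to 4 members with identical values, TC02000740, TC04000491, TC04001102 and TC07001932, at 19.78 in parental and 19.63 in resistant cells. TC01002863 stood at 19.41 and 19.45, between HFM1, a gene of a meiotic DNA helicase (3.98 and 4.12), and TGFBR3, a coreceptor for transforming growth factor beta (6.21 and 7.40). The 10 brightest members differed between the arrays by -0.15 to 0.25 log2 units, and the brightest with named neighbours stood far above them.

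**Figure D1:**
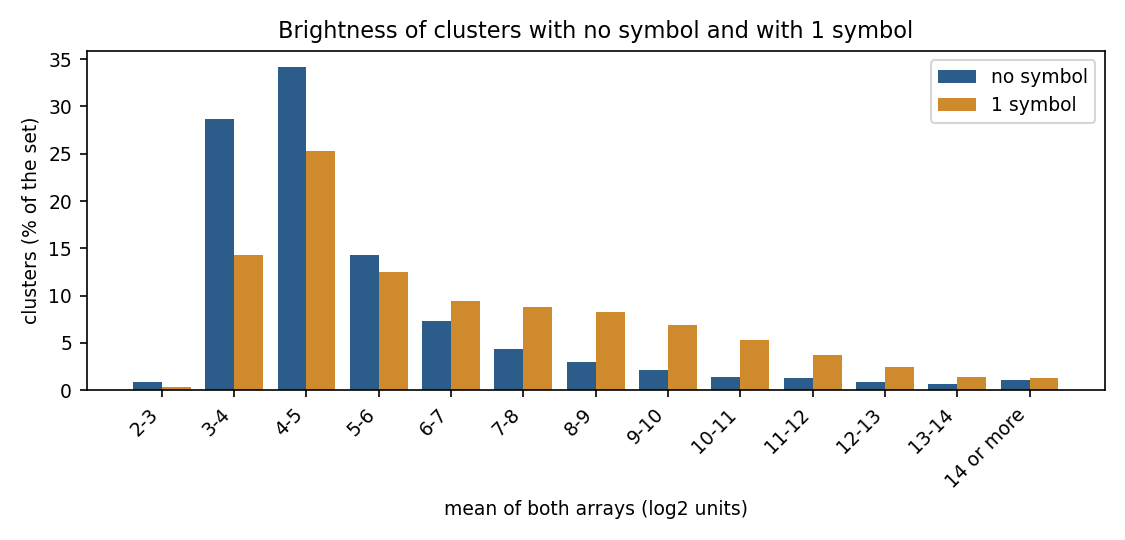
Share of each set of clusters (vertical axis, percent) by the mean log2 value of both arrays (horizontal axis, bins of 1 log2 unit), for 36398 clusters without a symbol and 19628 clusters with 1 symbol on the same chromosomes. Clusters without a symbol are most frequent between 3 and 5, where the background level lies, and form a smaller share than clusters with a symbol in each bin from 6 upwards, yet in the top bin their number is larger, at 391 against 247.

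The first question was how the members differed between the resistant and the parental line. Differences are log2 values of the resistant minus the parental array. A member was counted when its mean over both arrays exceeded 5.03, the mean background, which left 12996 members (35.7%). Of these, 987 (7.59%) were at least 2-fold higher on the resistant array and 1771 (13.6%) at least 2-fold lower. Over all 30100 counted clusters of the table, 10.2% were higher and 13.2% lower, together 23.4%, and the members' 21.2% was close to that background. The members' share lower, 13.6%, was near the 13.2% of all counted clusters, and their share higher, 7.59%, was below the 10.2%. The direction was the reverse of that of clusters with 1 symbol. Among 11686 counted clusters with 1 symbol on the same chromosomes, 1564 (13.4%) were higher and 1289 lower.

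The median difference of counted members was -0.18 log2 units, against 0.00 for clusters with 1 symbol and -0.11 for all counted clusters. A loess correction of the difference on brightness shifted the differences of counted clusters by a median of 0.122, so the level of 0 is itself uncertain by about that much. The gap between members and clusters with 1 symbol was -0.18 as deposited and with quantile normalisation, and -0.19 with loess. Centring the arrays moves every difference by the same amount, so it could not change this gap. Under loess the members' median was -0.07 and that of clusters with a symbol 0.12, and lower members still outnumbered higher ones, 1497 to 1143. At 8-fold, 136 members were higher and 159 lower, 1.05% and 1.22% of those counted, where 1.41% and 1.23% of all counted clusters passed. Across counted members the arrays had a Pearson correlation of 0.918, and across counted clusters with a symbol 0.895, where clusters are not independent replicates.

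The shift towards lower values was larger at middle brightness. Among members with a mean between 8 and 9, the median difference was -0.33, 11.2% were at least 2-fold higher and 23.4% lower. For clusters with 1 symbol in the same bin it was 0.02, with 16.2% higher and 13.4% lower. The members' medians lay between -0.33 and -0.12 in the bins from 5 upwards, and those of clusters with a symbol between -0.04 and 0.10. With clusters with a symbol weighted to the members' brightness, 20.96% of them were different, against 21.2% of the members. At matched brightness 7.59% of members were higher against 11.3%, and 13.6% were lower against 9.62%.

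**Figure D2:**
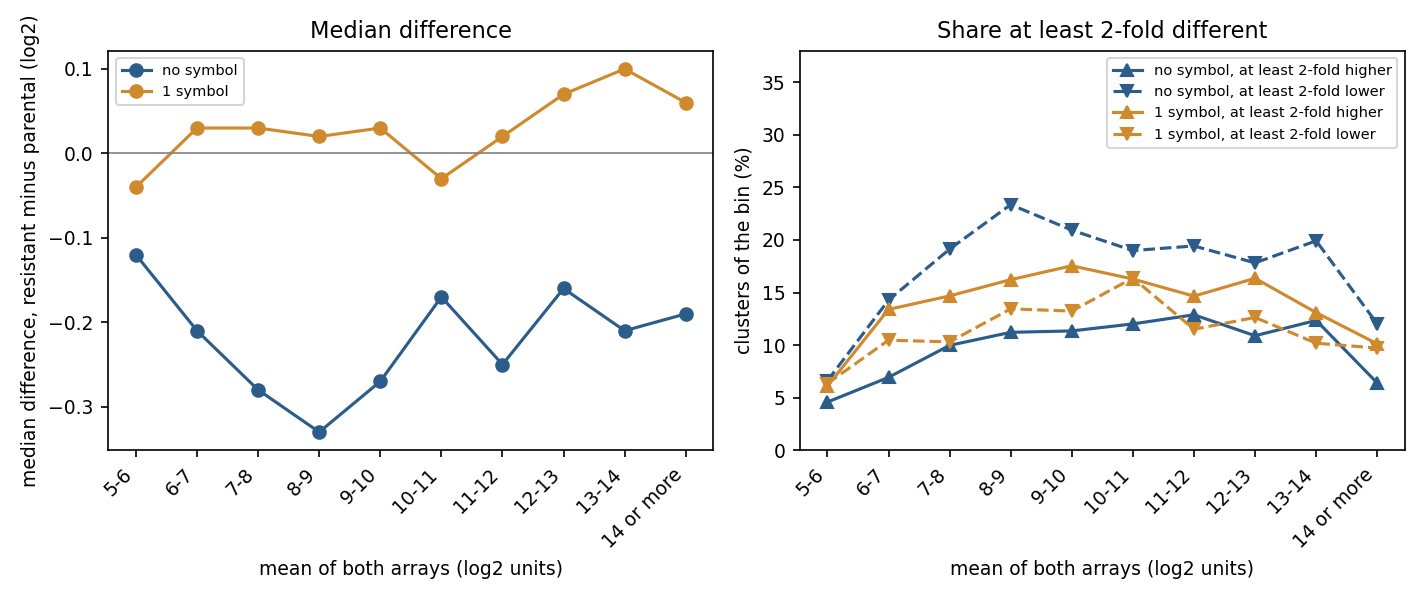
Left, median difference (resistant minus parental, log2) against the mean of both arrays in bins of 1 log2 unit. Right, share of each bin at least 2-fold higher (upward triangles) or lower (downward triangles). Blue is clusters without a symbol and orange clusters with 1 symbol. The blue medians lie between -0.33 and -0.12 and below the orange ones in each bin shown.

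The shift also depended on the series. In the first series, 139 of 3171 counted members were higher and 421 lower, with a median of -0.22. In the second, 161 of 3336 were higher and 524 lower, with a median of -0.23. Clusters with 1 symbol, lying among these same members, had 764 higher and 584 lower in the first series and 718 and 595 in the second. In the third series 676 of 6380 counted members were higher and 809 lower, with a median of -0.11. The series without named neighbours thus had the most nearly equal numbers of higher and lower members among the first 3. It also held 109 of the 136 members that were at least 8-fold higher and 73 of the 159 that were 8-fold lower. These were 1.71% and 1.14% of its counted members, against 1.05% and 1.22% of all counted members.

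Named noncoding classes on the same chromosomes give a scale for these figures. Long intergenic RNAs with a LINC symbol had 11 higher and 12 lower of 104 counted, with a median of -0.16. Antisense transcripts had 8 higher and 15 lower of 185, with a median of -0.15. Small nucleolar RNAs and the related SCARNA clusters, mostly guides for the chemical modification of other RNAs, had 4 higher and 46 lower of 139, with a median of -0.72. MicroRNA clusters had 5 and 36 of 316, with a median of -0.29. Copies of small nuclear RNAs (2 higher and 4 lower of 134) and of 5S ribosomal RNA (5 and 7 of 193) differed little, with medians of -0.04 and 0.11. Clusters of protein-coding genes had 1460 higher and 1067 lower of 9691, with a median of 0.04. The members' median of -0.18 was near those of LINC and antisense clusters, which as named classes are a description and not an assignment of the members.

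Both lines carried their labelled cell type in part. Of 10 squamous epithelial markers 6 had a cluster of their own, and all were above background on both arrays, but keratin 14 (KRT14) stood at 11.39 in parental and 5.17 in resistant cells and keratin 5 (KRT5) at 17.25 and 13.75. The desmosomal genes DSP (15.31 and 12.31) and JUP (12.34 and 11.32) were lower too, whereas the adhesion genes CDH1 (13.33 and 12.62) and EPCAM (12.61 and 13.98) were lower by less than 2-fold and higher, respectively. Among leukocyte, endothelial and fibroblast markers, 3 of 11 measured were above background in parental cells and 5 in resistant cells, with CD68, a marker of macrophages, the highest at 11.19 and 9.71. The part of this difference in cell state in the members' values was not tested.

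Single members differed by far more than 2-fold in both directions. TC05002946 stood at 3.69 in parental cells, below background, and at 13.89 in resistant cells, at least 428-fold higher. TC04002100 stood at 4.44 and 14.14, at least 509-fold higher. Both lie in the third series, on chromosomes 5 and 4, and only the resistant array showed them above background.

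The next members in size were also at background in the parental line. TC02004045 stood at 4.92 and 13.23, at least 271-fold higher. TC06003667 stood at 4.59 and 12.82, at least 204-fold higher, and TC05002434 at 4.94 and 12.86, at least 210-fold higher. TC10002107 stood at 4.22 and 12.41, at least 153-fold higher. Of the 12 members with the largest positive difference, 9 were at or below background on the parental array.

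The exceptions among the 12 were measurable in both lines. TC20001671 stood at 6.04 and 13.58, 186-fold higher, and TC08002271 at 6.23 and 13.05, 113-fold higher. TC01002880 stood at 5.39 and 12.76, 165-fold higher. Its identifier lies on the minus strand series of chromosome 1 directly between BCAR3, the gene of a signalling adaptor at 6.82 and 9.15, and DNTTIP2 at 9.71 and 10.84, so both named neighbours were higher on the resistant array too, by 2.33 and 1.13 log2 units. The remaining 3, TC11003029, TC16001417 and TC03002788, reached 11.36, 11.07 and 11.53 on the resistant array from 4.61, 4.46 and 4.92.

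On the other side, TC17002547 stood at 15.87 in parental and 7.43 in resistant cells, 347-fold lower, and was above background in both. TC01004781 stood at 12.56 and 4.47, at least 200-fold lower. TC03003211 stood at 12.12 and 4.55, at least 147-fold lower. The first of these was the brightest member, on the parental array, among the 12 largest negative differences, and 4 of the 12 were at background on the resistant array.

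Chromosome 17, with 735 of the 12996 counted members, gave 4 of these 12, a count with no test. Beside TC17002547, TC17002908 stood at 13.91 and 6.38, 185-fold lower, and TC17002090 at 14.25 and 7.69, 94.4-fold lower. TC17002479 stood at 10.78 and 3.73, at least 58.1-fold lower. TC11003000 on chromosome 11 stood at 13.98 and 6.68, 158-fold lower, and TC19002172 at 13.20 and 6.72, 89.3-fold lower. TC04002953 and TC04002952, with consecutive identifiers, were nearly alike, at 11.67 and 5.27 and at 11.85 and 5.50.

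Only 3 of the 24 members with the largest differences lie in the series ordered among named genes, 18 are in the third series and 3 in the fourth. The third series held 6380 of the 12996 counted members. TC03001042 on the plus strand of chromosome 3 stood at 12.32 and 4.83, at least 169-fold lower. It lies directly between TPRG1, at background on both arrays (4.75 and 4.85), and the microRNA gene MIR944 (7.45 and 4.16), itself with a difference of -3.29. TC04000276 stood at 11.97 and 5.49, 89.3-fold lower, beside the magnesium transporter gene NIPAL1, which differed little, at 8.55 and 8.79.

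**Figure D3:**
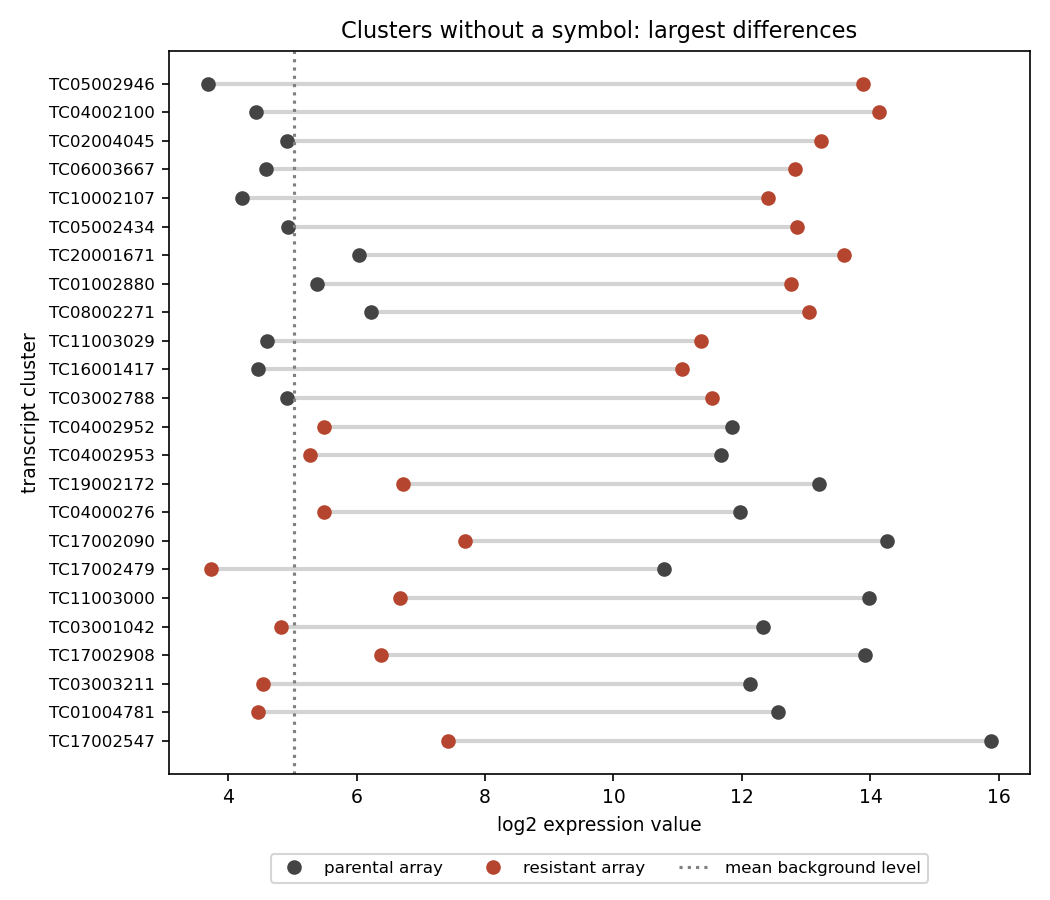
Log2 values of the 12 clusters without a symbol with the largest positive (top) and the 12 with the largest negative difference (bottom), with grey points for the parental and red points for the resistant array and a dotted line at the mean background of 5.03. Of the upper 12, 9 start at background, and of the lower 12, 4 end there.

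Since most of the largest differences had no named neighbour, the 12 largest each way within the first and second series were also taken, a choice made after the values were seen. Some followed a named neighbour. TC11000726 on chromosome 11 stood at 11.65 and 6.21, 43.4-fold lower, between the microRNA gene MIR548K (11.06 and 7.05) and CTTN, the gene of the actin-binding protein cortactin (16.51 and 13.23). On the other strand TC11002031 stood at 12.30 and 7.47 beside SHANK2, a scaffold protein gene at 10.05 and 6.99. These 2 members, MIR548K, CTTN and SHANK2 had differences of -5.44 to -3.06, while the named cluster on the other side of TC11002031, MIR3664, was at background on both arrays (3.23 and 2.78). TC13000880 stood at 15.34 and 10.88, near ANKRD10 at 14.40 and 11.35.

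Others did not. TC13000396 stood at 12.02 and 6.34, 51.3-fold lower, next to ING1, the gene of a chromatin-binding growth inhibitor, at 6.93 and 7.08. TC05001789 stood at 9.76 and 3.58, at least 28.7-fold lower, beside CDKN2AIPNL at 9.80 and 9.68. TC19001923 stood at 9.27 and 4.11, at least 20.4-fold lower, although its neighbour CHMP2A, a gene of the membrane-severing ESCRT complex, was higher on the resistant array, at 8.20 and 10.41. In these 3 places the unnamed cluster was far lower while the gene beside it was within 2-fold or higher.

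Members of the ordered series that were higher showed both patterns too. TC03000565 stood at 6.26 and 12.20, 61.4-fold higher, between CD96, the gene of a lymphocyte receptor at background on both arrays (4.44 and 4.22), and ABHD10 at 8.95 and 10.49. TC11002123 stood at 6.89 and 11.51, 24.6-fold higher, beside CLNS1A, a gene of a chloride channel and methylosome protein, at 9.72 and 11.80. TC08000256 stood at 4.89 and 9.55, at least 21.1-fold higher, next to NRG1, the gene of the neuregulin 1 ligand, which was dim in both lines, at 5.54 and 4.25. TC12000622 stood at 4.29 and 8.59, at least 10.9-fold higher, beside the potassium channel subunit gene KCNMB4 at 6.41 and 8.20.

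Some members were bright on 1 array and at background on the other. There were 41 with at least 8 on the resistant array and no signal above background on the parental array, 1.12% of the 3670 members that reached 8 on the resistant array. The reverse held for 33, or 0.825% of the 4000 that reached 8 on the parental array. Over the whole table these shares were 1.08% and 0.612%, the first close to the members' share and the second below it, with no test of either. Of the 41 members, 33 lay in the third series, which held 6380 of the 12996 counted members, and 8 in the ordered ones. Of the 33 bright on the parental array only, 19 lay in the third series, 13 in the ordered ones and 1 in the fourth.

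By chromosome, the number of members ran from 754 on chromosome 21 to 4049 on chromosome 1, and the share counted from 25.2% on chromosome 21 to 47.7% on chromosome 16. Lower members outnumbered higher ones on 16 of the 19 chromosomes, whereas for clusters with 1 symbol this held on 7 chromosomes and the opposite on 11. The members' median was below that of clusters with 1 symbol on 18 of 19 chromosomes, with chromosome 21 the exception (-0.10 against -0.12). On 12 of the 16 chromosomes, lower members outnumbered higher ones under each of 4 scalings of the arrays. The exceptions were chromosomes 3, 11, 20 and 21, where loess or quantile normalisation gave equal numbers or turned them, and on chromosomes 3 and 11 as deposited the counts were 60 higher and 80 lower, and 59 and 79.

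Chromosome 15 had the largest share of lower members. Of its 820 counted members 187 (22.8%) were lower and 46 higher, with a median of -0.32, against 77 lower and 42 higher of 467 clusters with a symbol. Chromosome 6 had the lowest median, -0.35, with 177 of 932 lower and 58 higher. Chromosome 17 had 115 lower and 25 higher of 735, the smallest share of higher members, and chromosome 16 had 81 lower and 23 higher of 524. Clusters with a symbol had 141 lower and 54 higher of 807 on chromosome 17, a larger share lower than among the members, and 78 lower and 28 higher of 624 on chromosome 16, with nearly the members' share higher. On chromosome 6 they had 82 lower and 80 higher of 689. Clusters with a symbol also had medians below 0 on these 4 chromosomes, between -0.18 and -0.12.

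Chromosome 19 went the other way, with 69 members higher and 43 lower of 516 and a median of 0.06. It was the only chromosome with a median above 0 as deposited. The clusters with a symbol there had 169 higher and 25 lower of 906, with a median of 0.24. Chromosome 4 (63 higher and 43 lower of 592) and chromosome 10 (57 and 50 of 629) also had more higher than lower members, and all 3 kept this order under the 4 scalings. Clusters with a symbol had the larger excess there, with 93 higher and 30 lower of 473 on chromosome 4 and 80 and 59 of 529 on chromosome 10. Over the 19 chromosomes, the medians of members and of clusters with a symbol had a Pearson correlation of 0.720 and a Spearman correlation of 0.622. Both come from the same 2 arrays, and this is a description.

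The member with the largest difference on each chromosome lay in the third series on all 19, a series with 6380 of the 12996 counted members. That member was higher on 12 chromosomes and lower on 7. Beyond those already given, TC12002734 stood at 6.60 and 13.03, 86.2-fold higher, and TC07002600 at 5.45 and 11.81, 82.1-fold higher. TC15002176 stood at 11.73 and 5.74, 63.6-fold lower. The smallest of these leaders were TC21000946, at 3.96 and 9.17, and TC22001260, at 9.26 and 3.47, on chromosomes 21 and 22.

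**Figure D4:**
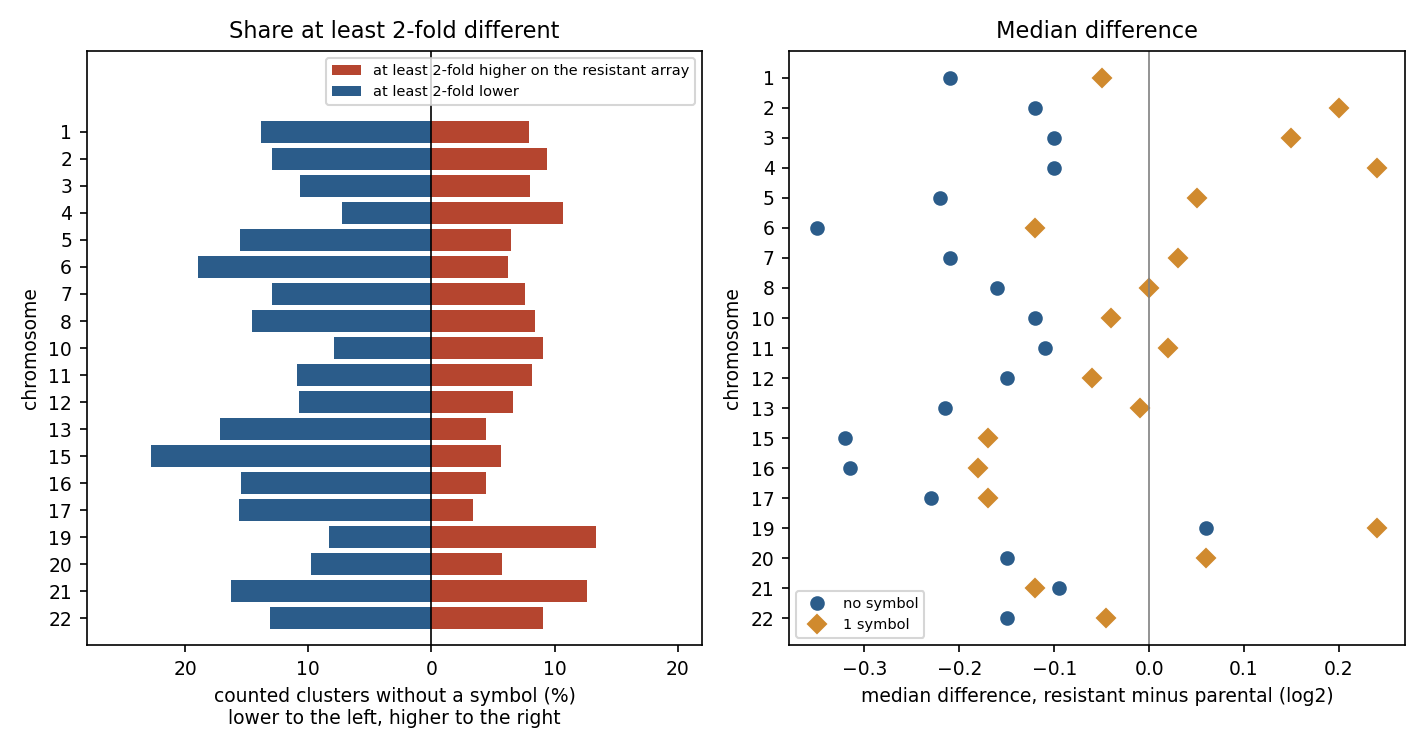
Left, share of counted clusters without a symbol at least 2-fold higher (red, to the right) or lower (blue, to the left) on the resistant array, by chromosome. Right, median difference (log2) of clusters without a symbol (blue) and with 1 symbol (orange). Chromosome 15 has the longest blue bar, 22.8%, and chromosome 19 is the only one with a blue median above 0.

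The second question was whether members next to each other in identifier order differed alike. Over 4427 pairs of counted members next to each other in identifier order, the differences had a Pearson correlation of 0.381 and a Spearman correlation of 0.396. The Pearson correlation was 0.453 in the first series, 0.445 in the second and 0.320 in the third (2747 pairs). With no symbols in the third series, its identifier order could not be set against genes. Pairs of consecutive clusters with a symbol had 0.273 (4745 pairs), and a member beside a cluster with a symbol 0.234 (3922 pairs). Successive counted members whose numbers differed by 2 or more had 0.0716 (8524 pairs). Some numbers are skipped, and a pair on either side of a skipped number could enter both groups. All pairs share the 2 arrays, and adjacent clusters may share sequence, so these are descriptions with no test.

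The numbers of higher and lower members changed with the named neighbour. Pairs were counted, so a cluster with such a neighbour on each side entered more than once. Beside a named cluster at least 2-fold lower (443 pairs), the member was lower in 118 pairs and higher in 8, with a median of -0.43. Beside one within 2-fold (2918 pairs), it was lower in 332 and higher in 104, with a median of -0.21. Beside one at least 2-fold higher (561 pairs), it was lower in 25 and higher in 66, with a median of -0.03. In the 40 pairs with a named cluster at least 8-fold lower the median was -0.69, with 15 lower and 1 higher. In the 75 pairs with one at least 8-fold higher it was 0.05, with 1 lower and 18 higher.

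Runs were mostly of lower members, as were the single counted members at least 2-fold different (1771 lower and 987 higher). Runs of clusters with a symbol were not counted, and whether runs add to that imbalance was not tested. A run is at least 3 counted members following each other within a series, all at least 2-fold in the same direction, with dim members and named clusters between them passed over. There were 103 runs of lower members, holding 405, and 25 runs of higher members, holding 80. Of these 128 runs, 62 lay in the third series, whose order could not be set against genes. Runs of at least 5 numbered 20 lower and 1 higher. The single long higher run was TC05002891 to TC05002895 on chromosome 5 in the third series, with a median difference of 1.25. A higher run of 4, TC19002386 to TC19002389, had a median of 2.94.

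The 2 longest runs lay beside genes with many near-identical copies. On the minus strand of chromosome 2, 14 lower members from TC02002302 to TC02002316 led up to POTEF, a gene of the primate-specific POTE ankyrin family, which stood at 9.35 and 4.59. Their median was 7.30 in parental and 4.93 in resistant cells. On the plus strand of the same chromosome, 11 lower members from TC02000832 to TC02000842 followed POTEE, at 9.10 and 4.39, with a median difference of -2.40.

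More POTE genes bordered shorter runs. The run of 6 from TC02000818 to TC02000823 followed POTEJ and that from TC02002333 to TC02002338 led up to POTEI, each at 8.50 and 5.12, and both runs had a median difference of -3.67. On chromosome 22, 8 lower members from TC22000442 to TC22000453 led up to POTEH, at 6.97 and 5.01, with a median of -1.68. Each named POTE gene beside these 5 runs was thus lower too, and members of near-identical families may share probes, so their single values are uncertain.

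The next runs in length had named neighbours within 2-fold. On chromosome 1, 10 lower members from TC01001389 to TC01001398 lay between SDHC, a succinate dehydrogenase subunit gene at 11.82 and 11.45, and FCGR2A, an immunoglobulin receptor gene at background on both arrays. Their median difference was -2.29. On chromosome 19, 9 members from TC19001731 to TC19001739 all stood at exactly 9.61 and 7.26, between VRK3, a kinase gene at 7.99 and 8.96, and SNAR-D, a gene of a small RNA family with many copies, at 9.13 and 8.55. In contrast, a run of 7 on chromosome 11, from TC11002025 to TC11002032, spans SHANK2, which was lower too, and includes TC11002031.

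**Figure D5:**
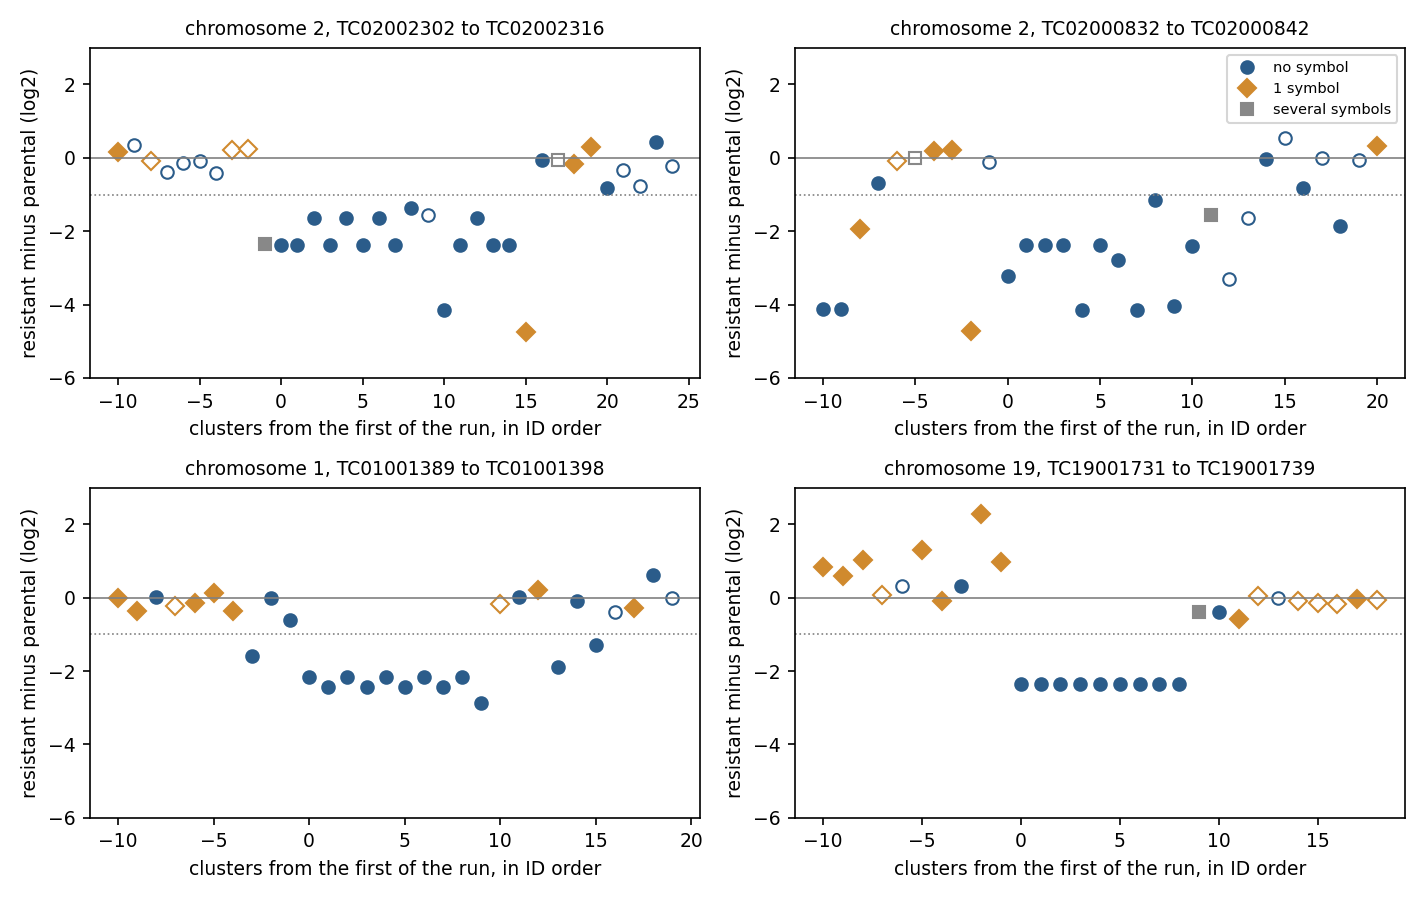
Difference (resistant minus parental, log2) of single clusters in identifier order around the 4 longest runs, with 10 clusters on either side; circles are clusters without a symbol, diamonds clusters with 1 symbol, squares clusters with several, and open marks are not above the mean background. The dotted line marks 2-fold lower. Some levels recur within each run, with a single level, -2.35, on chromosome 19. The run from TC02000832 to TC02000842 holds 8 distinct pairs of values among 11 clusters.

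The repeated levels in these runs led to a count of members with identical values on both arrays, added after the data were seen. Among members with a mean of at least 8, 327 of 3782 (8.65%) belonged to 58 sets of at least 3 with the same pair of values to 2 decimals. For clusters with 1 symbol this held for 7 of 5751 (0.122%), in 2 sets. Of the 327 members, 166 were lower by 2-fold or more and 16 higher. The same held for 27 and 2 of the 58 sets. The 14 members of the run beside POTEF held 5 distinct pairs of values, and the 11 beside POTEE held 8.

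The largest set had 19 members on chromosomes 1, 2, 4, 15, 21 and 22, all at 9.37 in parental and 7.72 in resistant cells. Next came 13 members on chromosomes 1, 4, 13 and 21 at 8.15 and 9.80, the largest of the sets that were higher. On chromosome 15, a set of 12 stood at 9.63 and 6.46, at places whose named neighbours included HERC2P2, HERC2P9, GOLGA8M and TJP1, and a further set of 12 there stood at 9.85 and 9.02. A set of 11 on chromosome 16 stood at 12.82 and 12.66. Members of a set cannot be taken as separate measurements, since the files do not show whether their probes differ.

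With every pair of values shared by 2 or more members at a mean of at least 8 counted once, which removed 340 members, 967 members were higher and 1612 lower, and the median was -0.17. Repeats at a lower mean stayed in these counts, among them the 7.30 and 4.93 that recur in the runs beside POTEF and POTEE. Among members with a mean of at least 8, the counts went from 420 higher and 754 lower to 400 and 595. Chromosome 15 had 61 members in sets of at least 3, of which 36 were lower and none higher. Counted once, it had 46 higher and 153 lower, and a median of -0.27, and its share of lower members, 20.1%, was still the largest of the 19 chromosomes.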

How the data were processed

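Total RNA, purified with a DNase step and labelled with biotin per the labels' protocols, was hybridised to 1 array per line. The deposited values are log2 expression values with 2 decimals, a unit inferred from the values. Per the submitters' processing notes, the authors used Affymetrix Expression Console. Neither its version nor the algorithm or genome build is named in the sources used here. The sorted columns lay 0.06 apart at the median and 0.28 at the most, so the deposited columns had nearly the same distribution; which step gave this was not tested, and a difference in total RNA per cell could not be seen in such values. Probe intensities, detection calls and scan batches were not used here.

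Members were found by matching identifiers to the platform annotation, and symbols were updated to RefSeq GRCh38.p14, used for names and gene order only. Where 1 array was at background, a fold is "at least", computed from that array's background level. The number of arrays limits the precision, and counts and medians over clusters are descriptions.

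Members named are the 12 largest positive and negative differences among counted members, the largest of each chromosome, the 10 brightest and the 4 longest runs, with the nearest named clusters. Further ordered-series members, shorter runs, identical sets and the small nuclear, 5S, Y RNA and protein-coding classes were chosen after their values were seen. All members and lists were chosen with earlier results of these data known. Y RNA clusters had 1 higher and 4 lower of 36 counted, with a median of -0.19. Alternatives were other scalings, filters, background levels and size thresholds. Scripts (Python 3.11.15, pandas 2.3.3, NumPy 2.4.6, SciPy 1.17.1, statsmodels 0.14.6) were tested on simulated data.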

Additional observations from a re-analysis of the deposited data

How the results depend on the processing

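No paired analysis was possible because each line has 1 array, and no replicate could be left out. Of 51 summary alternatives, 34 stayed within wide margins fixed for each kind of value, such as 1.5-fold for counts, and 17 moved further. Within those margins the median of counted members went from -0.18 as deposited to -0.11 with arrays centred and -0.085 with quantile normalisation. Also within them were the 12 chromosomes with more lower members and the turned sign of the matched share, both under loess. The 72 rescaled differences of the 24 largest members moved by at most 0.14 log2 units. The median difference of counted members was -0.0667 with loess and -0.06 with no filter. Higher and lower members numbered 420 and 754 at a mean of 8 or more, 1746 and 3424 at 1.5-fold, and 319 and 446 at 4-fold. With runs of consecutive identifiers counted once, 1033 were lower and 666 higher. Members above background numbered 6837 in parental and 5014 in resistant cells at the 99th percentile of olfactory receptor clusters, and 28357 and 29415 at their median. The excess of members on the resistant array in the main count therefore turned at the stricter level. At matched brightness the share of different members was 0.27 percentage points above that of clusters with a symbol and 2.01 points below that of LINC clusters (a difference of -2.01), and its sign also turned with loess (-0.74). The correlation of adjacent members was 0.209 without a filter, 0.234 with a named cluster in place of 1 member, 0.0716 for numbers further apart and 0.371 without pairs of identical values. The chromosomes with more lower members numbered 12 with loess, 14 with quantile normalisation and 15 or 16 otherwise. The cause of these shifts was not tested, beyond fewer or more clusters passing each threshold. Dim clusters limit all counts near background, and sharing of probes between members cannot be seen in the files.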
